A study of Arabidopsis thaliana with 15 samples.

Results

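The obe1-2 and wrky-qm mutants of Arabidopsis thaliana were set directly against each other, 3 libraries against 3 of the 15 libraries of the series, over the 24170 of 32548 loci whose mean was at least 1 normalised read in obe1-2 or wrky-qm. Seedlings labelled obe1-2 carry obe1-/- obe2-/-, and seedlings labelled wrky-qm carry wrky7-/-11-/-17-/-21-/-39-/-. Both are in the Col-0 ecotype, as are the 2 wild-type sets Col-0_2 and Col-0_1, each of 3 libraries. The fifth group of the series, a mutant labelled wrky-qm_15_hz, was part of the fit but of no contrast. All were harvested at 11 days from Murashige and Skoog plates kept at 22 °C with 16 h of light and 8 h of dark, with no treatment. The labels name no insertion alleles, do not say whether replicates are separate cultures, and do not say which wild-type set was grown with which mutant. P-values therefore cover the spread of these libraries alone, part of which may be technical. Whole seedlings were sampled, so a lower value from fewer cells of a type cannot be told apart from one from less RNA per cell.

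OBERON proteins carry a plant homeodomain (PHD) finger, a fold that binds histone tails, and OBE1 and OBE2 are known to act redundantly in establishing and maintaining the root and shoot meristems. WRKY7, WRKY11, WRKY17, WRKY21 and WRKY39 belong to group IId of the WRKY transcription factors, which bind calmodulin and the W-box element and of which several are known to dampen defence. The series title places both families in 1 complex that represses stress-responsive genes, so the comparison asks where the loss of one partner and the loss of the other differ.

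The difference between the mutants was large and ran across most of the transcriptome. Of 24170 genes tested with limma, 17553 differed between obe1-2 and wrky-qm at a Benjamini-Hochberg adjusted p under 0.05, which is 72.6% of those tested. Of these, 7799 were higher in obe1-2 (32.3% of genes tested) and 9754 were lower (40.4%). At least 2-fold differences were called for 2975 genes higher in obe1-2 (12.3%) and 5737 lower (23.7%). These counts were 3150 higher and 5550 lower after scaling by the trimmed mean of M values (TMM), and 3665 and 5097 after median centring. After quantile normalisation of the libraries they were 4379 higher and 4345 lower. The excess of large falls in obe1-2 thus stayed after TMM scaling and median centring. It was lost under quantile normalisation, which gives every library the same distribution of values. All 3 obe1-2 libraries lay above all 3 wrky-qm libraries in 34.3% of genes tested and below them in 41.4%. Because so many genes were called, a count for a gene group is read here beside these shares. Here a log2 difference is the mean of log2(value + 1) in obe1-2 minus that in wrky-qm, given with its standard error (SE), and it understates the change of low genes. Its median over all genes tested was -0.13, and the balance of calls depended on scaling: 44.4% of calls were higher in obe1-2 as deposited, against 53.4% when each library was centred on its median, which moved that median to 0.04. Library totals were 48769529 to 49323667 normalised reads in obe1-2 and 45887436 to 46402162 in wrky-qm, and the median coefficient of variation of genes with a mean of at least 1000 was 3.87% in obe1-2 and 3.77% in wrky-qm. Correlations between libraries on the log2 scale, a description over genes, were 0.887 to 0.889 between obe1-2 and wrky-qm and 0.983 to 0.987 within groups.

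The 2 wild-type sets also differed from each other, by less. Col-0_2 minus Col-0_1 gave 3434 genes higher in Col-0_2 (14.2%) and 2403 lower (9.94%), and the median absolute log2 difference was 0.74 between the mutants and 0.19 between the wild-type sets. The table stores zeros in 2 ways that follow the sets: 7949 values in each wrky-qm library and 8177 in each Col-0_1 library are tiny positive numbers below 1e-06, while obe1-2 and Col-0_2 hold none. A second contrast therefore subtracted the wild-type difference, as (obe1-2 minus Col-0_2) minus (wrky-qm minus Col-0_1). Both contrasts were passed in one direction by 6203 genes higher in obe1-2 (25.7%) and 7845 lower (32.5%), which is 80.0% of the direct calls. These genes are said below to hold. The reverse direction was called in the second contrast for 124 of the direct calls.

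**Figure D1:**
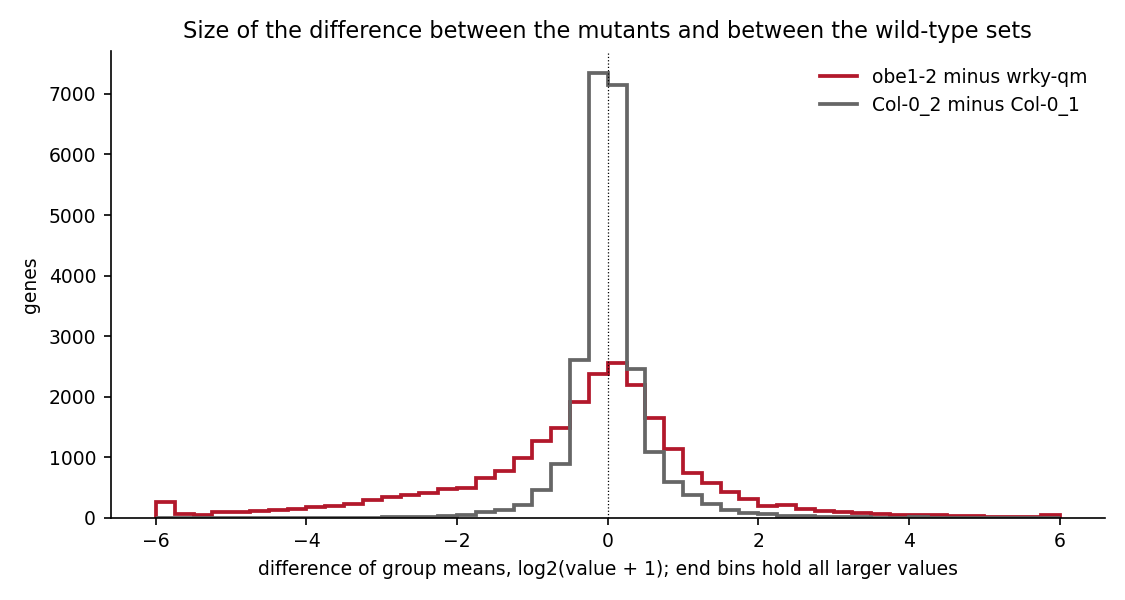
Number of genes by log2 difference for obe1-2 minus wrky-qm (red) and for Col-0_2 minus Col-0_1 (grey), over 24170 genes. The spread between the mutants, with a median absolute difference of 0.74, is wider than that between the wild-type sets, at 0.19, and it extends further to the left, where genes are lower in obe1-2.

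The mutants were next placed against all 6 wild-type libraries. Among the 9754 genes lower in obe1-2, the most frequent arrangement had all 3 obe1-2 libraries below all 6 wild-type libraries with wrky-qm overlapping them, in 4443 genes (18.4% of genes tested). Both mutants were below wild type in 1529 genes (6.33%), wrky-qm alone was above it in 1020 (4.22%), and both were above it in 427 (1.77%). In 1265 genes (5.23%) the mutants lay on opposite sides, with obe1-2 below and wrky-qm above every wild-type library. Among the 7799 genes higher in obe1-2, obe1-2 was above wild type while wrky-qm overlapped it in 3886 (16.1%), both were above it in 1387 (5.74%), and obe1-2 was above and wrky-qm below it in 1007 (4.17%).

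The mutated genes were read first. OBE1 (AT3G07780) had 16.0, 6.71 and 10.6 in obe1-2, against 4401, 4624 and 4839 in wrky-qm, with 2546 ± 109 in Col-0_2 and 2194 ± 160.5 in Col-0_1 (SD, n = 3 libraries a group here and below); the log2 difference was -8.65 ± 0.16 (SE) (limma adjusted p = 2.44e-21). OBE2 (AT5G48160) had 1753, 1897 and 1782 in obe1-2, against 5575, 5564 and 5522 in wrky-qm, with 4279 ± 128 in Col-0_2 and 3813 ± 111 in Col-0_1, a log2 difference of -1.62. OBE1 transcript was thus close to lost in obe1-2 and OBE2 transcript was reduced but present, while both were higher in wrky-qm than in either wild-type set. Of the other OBERON genes, OBE4 (AT3G63500) was lower in obe1-2 by a log2 difference of -0.66, and OBE3 (AT1G14740) was higher in the direct contrast (0.25, limma adjusted p = 4.23e-05) but not once the wild-type difference was subtracted (-0.06).

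Among the mutated WRKY genes, WRKY17 (AT2G24570) had 4825, 4719 and 5093 in obe1-2, against 162, 189.9 and 199 in wrky-qm, with 849 ± 33.3 in Col-0_2 and 1028 ± 94.9 in Col-0_1; the log2 difference was 4.73 ± 0.10 (SE) (limma adjusted p = 1.05e-20). WRKY21 (AT2G30590) and WRKY39 (AT3G04670) were also higher in obe1-2, by 1.41 and 0.43 log2. WRKY21 means were 1659 ± 37.6 in obe1-2, 626 ± 64.45 in wrky-qm, 947 ± 24.2 in Col-0_2 and 966 ± 9.15 in Col-0_1. WRKY39 means were 1348 ± 80.6 in obe1-2, 999.5 ± 36.7 in wrky-qm, 1426 ± 76.5 in Col-0_2 and 1466 ± 34.8 in Col-0_1. The obe1-2 mean of WRKY39 was thus not above the wild-type means, and its wrky-qm mean was below them. WRKY11 (AT4G31550) had 19020, 18389 and 19009 in obe1-2, against 2678, 2864 and 3050 in wrky-qm, with 2204 ± 82.9 in Col-0_2 and 1716 ± 168 in Col-0_1, and WRKY7 (AT4G24240) had 8158, 7781 and 8290 in obe1-2, against 1757, 1917 and 1856 in wrky-qm. Wild-type means of WRKY7 were 1112 ± 47.1 in Col-0_2 and 952 ± 67.7 in Col-0_1. Their transcripts were therefore above the wild-type means in wrky-qm and higher again in obe1-2, by 2.72 and 2.13 log2. Without the positions of the insertions, a transcript that is still counted checks nothing about the protein, so the WRKY7 and WRKY11 values neither support nor contradict the genotype label. WRKY15 and WRKY74, the remaining group IId members, which are intact in both mutants, did not hold: WRKY15 (AT2G23320) differed by 0.20 directly and by -0.14 after subtraction, and WRKY74 (AT5G28650) by 0.08 (limma adjusted p = 0.885). WRKY15 was above wild type in both mutants, at 3606 ± 75.0 in obe1-2 and 3129 ± 132 in wrky-qm. Its wild-type means were 1006 ± 68.9 in Col-0_2 and 795 ± 85.7 in Col-0_1.

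The largest differences, taken among genes that held, averaged 100 or more in a mutant and did not overlap between the mutants' libraries, mostly had 1 mutant at or near 0. PR1 (AT2G14610), a secreted antimicrobial protein and the classical salicylate marker, had 29657, 27992 and 29047 in obe1-2, against 5.74, 0.01001 and 0 in wrky-qm. Wild-type means were 59.9 ± 27.7 in Col-0_2 and 93.1 ± 16.3 in Col-0_1. CYP82C2 (AT4G31970), a cytochrome P450 of the 4-hydroxy-indole-3-carbonyl nitrile pathway, had 3923, 3893 and 3940 in obe1-2, against 1.88, 2.04 and 0 in wrky-qm. The berberine-bridge-type oxidase gene AT1G26390, the receptor kinase gene CRK38, the cadmium-resistance gene PCR1, the alcohol dehydrogenase gene ELI3-2 and the uncharacterised AT1G15610 were likewise detected in obe1-2 at 269.9 or more normalised reads in every library and at 6.09 or fewer in every wrky-qm library. AT2G17740, a cysteine- and histidine-rich C1 domain gene, had 8239, 8158 and 8458 in obe1-2, against 14.4, 33.7 and 55.4 in wrky-qm. In the other direction the late-embryogenesis-abundant-like gene AT5G54370 was listed at 0 in all obe1-2 libraries and had 2379, 2344 and 2521 in wrky-qm, with 1168 ± 66.6 in Col-0_2 and 1668 ± 65.8 in Col-0_1. The lectin gene AT1G52060, the uncharacterised AT5G40800, the heat shock factor HSFA6A and the beta-glucosidase BGLU35 were also listed at 0 in obe1-2 and had 1012 or more in every wrky-qm library. HSFA6A had 1160, 1020 and 1176 in wrky-qm, against 44.6 ± 7.06 in Col-0_2 and 54.4 ± 8.48 in Col-0_1, so that obe1-2 and wrky-qm lay on opposite sides of wild type. In all, 127 genes had a mean under 3 in obe1-2 and at least 100 in wrky-qm, and 24 genes had the reverse.

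**Figure D2:**
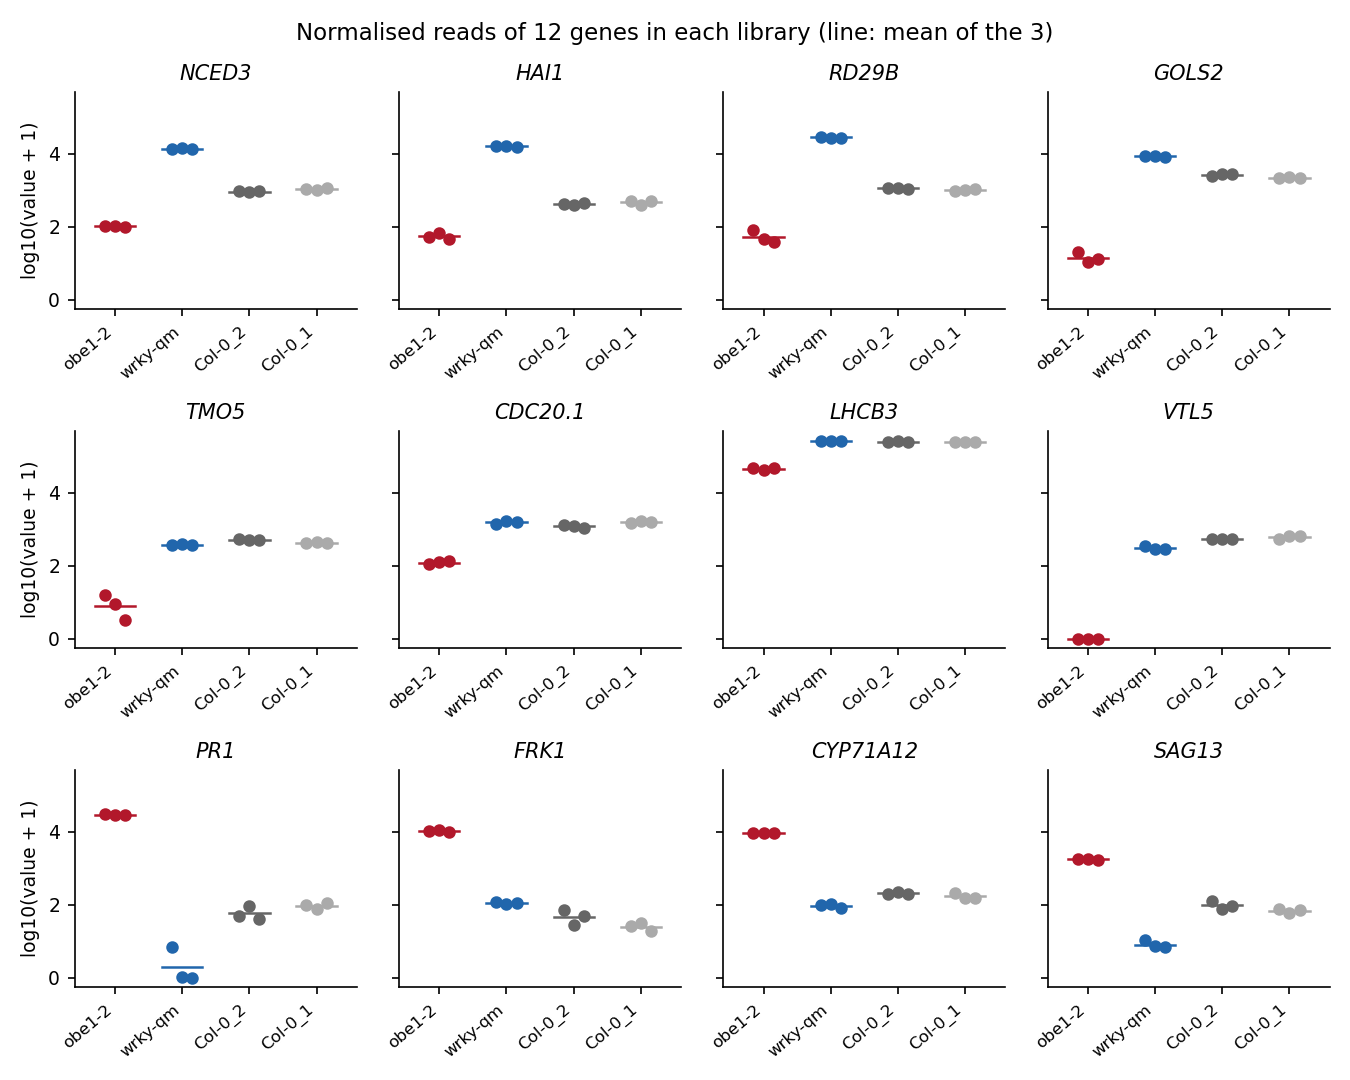
Values of 12 genes in each library of obe1-2 (red), wrky-qm (blue), Col-0_2 (dark grey) and Col-0_1 (light grey), as log10(value + 1), with a line at the mean of the 3. The upper 8 genes are lower in obe1-2 than in wrky-qm and the lower 4 higher, with no overlap between the mutants, and NCED3, HAI1, RD29B and GOLS2 lie below wild type in obe1-2 and above it in wrky-qm.

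Abscisic acid is the hormone of drought and seed maturation: it is made from carotenoids by NCED dioxygenases, bound by PYR/PYL receptors that then block clade A protein phosphatases, and acts through ABF transcription factors on dehydration genes. Most genes of its synthesis, its phosphatases and its dehydration targets were lower in obe1-2 than in wrky-qm, and most of the lower phosphatase and dehydration genes had the mutants on opposite sides of wild type. NCED3 (AT3G14440), the rate-limiting dioxygenase under drought, had 104, 100.3 and 99.5 in obe1-2, against 13541, 14010 and 13819 in wrky-qm. Wild-type means were 902 ± 34.4 in Col-0_2 and 1065 ± 90.2 in Col-0_1. The obe1-2 and wrky-qm libraries stood on either side of all wild-type libraries, with a log2 difference of -7.07 ± 0.07 (SE) (limma adjusted p = 8.71e-26). BGLU18 (AT1G52400), which releases abscisic acid from its glucose ester, had 464, 454 and 494 in obe1-2, against 18713, 18909 and 19154 in wrky-qm (-5.33). Of the 14 synthesis and breakdown genes, 9 were lower and 2 higher in obe1-2, and every one of these calls held. In 4 of the 9 lower genes obe1-2 overlapped wild type with wrky-qm above it, and in 3 the mutants lay on opposite sides. These arrangements were found in 10.5% and 13% of all genes called lower.

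Of 9 clade A phosphatase genes, 8 were lower in obe1-2 and held, with a list median log2 difference of -4.08, or -3.17 with values under 3 raised to 3, against -0.13 and -0.05 over all genes. In 6 of the 8, obe1-2 was below and wrky-qm above every wild-type library, an arrangement found in 13% of all genes called lower. HAI1 (AT5G59220) had 51.8, 67.2 and 43.6 in obe1-2, against 16370, 15902 and 15559 in wrky-qm (-8.20, limma adjusted p = 4.75e-23). Wild-type means were 415 ± 23.7 in Col-0_2 and 460.2 ± 50.5 in Col-0_1. HAI2 (AT1G07430) had 2.14, 0.0300 and 2.102 in obe1-2, against 5196, 4785 and 4686 in wrky-qm, and HAI3 was listed at 0 in obe1-2 and had 38.6, 25.5 and 15.3 in wrky-qm. The receptors showed another pattern: 6 of 9 PYR/PYL genes were higher and held, and 3 were lower. PYL5 (AT5G05440) had 7486, 7228 and 7576 in obe1-2, against 891, 1022 and 988 in wrky-qm (2.94), followed by PYL4 (2.35) and PYL6 (2.28). After subtraction these 3 differed by 1.95, 1.52 and 0.73. Of 12 kinase and transcription factor genes of the pathway, 2 were higher and 8 lower, the lower ones including ABF3 (AT4G34000) with 1469, 1408 and 1397 in obe1-2, against 10332, 10304 and 9353 in wrky-qm (-2.81), the homeodomain gene HB12 (-2.97) and the NAC gene RD26 (-2.62).

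Dehydration and cold protection genes, most of which encode hydrophilic protectants and the rest mainly galactinol and proline synthesis enzymes, were lower in obe1-2 in 18 of 20 cases and higher in 1, and 17 of the lower ones held. The list median was -3.79, made up of a median of -2.56 in obe1-2 and 1.26 in wrky-qm against the average of the 2 wild-type sets. In 14 of the 18 lower genes the mutants lay on opposite sides of wild type, against 13% of all genes called lower. RD29B (AT5G52300), a hydrophilic protein under direct ABF control, had 79.1, 44.98 and 37.4 in obe1-2, against 28868, 27536 and 27688 in wrky-qm. Wild-type means were 1138 ± 36.2 in Col-0_2 and 1005 ± 78.1 in Col-0_1. GOLS2 (AT1G56600), a galactinol synthase of raffinose synthesis, had 19.2, 9.96 and 11.7 in obe1-2, against 8472, 8758 and 8322 in wrky-qm. Wild-type means were 2642 ± 194 in Col-0_2 and 2208 ± 55.1 in Col-0_1. KIN1 (AT5G15960), a small cold-induced protein with a close tandem copy, had 14.9, 9.86 and 7.49 in obe1-2, against 2157, 2307 and 2251 in wrky-qm. These 3 differed by -9.07, -9.24 and -7.62 log2 (limma adjusted p = 9.56e-22, 7.78e-22 and 5.02e-18). Of 16 CBF, DREB and ZAT regulators of the same programme, 9 were lower and held and 7 were higher, of which 4 held. DDF1 (AT1G12610) had 2.11, 0.0151 and 0.00995 in obe1-2, against 547, 574 and 525 in wrky-qm. DDF2 and CBF4 were listed at 0 in all obe1-2 libraries, and had 155, 217 and 142 (DDF2) and 104, 122 and 86.7 (CBF4) in wrky-qm. All 3 were at a mean of 3.95 or below in both wild-type sets.

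Seed storage and embryo genes, normally silent in seedlings and induced by abscisic acid in maturing seeds, were lower in obe1-2 in 12 of 16 cases. CRU3 (AT4G28520) and CRA1 (AT5G44120), cruciferin storage globulins, had 2.304, 6.57 and 12.5 in obe1-2, against 4120, 4292 and 4156 in wrky-qm for CRU3 and 22.99, 39.1 and 43.2 in obe1-2, against 4660, 4876 and 4813 in wrky-qm for CRA1. In most of these obe1-2 overlapped wild type: wrky-qm alone lay above all wild-type libraries in 9 of the 12, against 10.5% of all genes called lower. The wild-type sets differed in these genes too, with 358 ± 49.02 in Col-0_2 and 17.9 ± 4.95 in Col-0_1 for CRA1. Over the 5 seed markers read beside the results (CRU2, CRU3, SESA2, SESA3 and OLEO1) the summed level was 38.2 to 67.4 in obe1-2, 4499 to 4631 in wrky-qm, 52.6 to 64.9 in Col-0_2 and 0 to 3.75 in Col-0_1, with CRU2 and SESA3 under 3 in obe1-2 and no marker under 3 in wrky-qm. The part of ungerminated seed or embryo tissue in the seed storage and dehydration results was not tested.

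Salicylate-dependent and pattern-triggered immunity genes were mostly higher in obe1-2. Salicylic acid is made from chorismate by isochorismate synthase and amplified by pipecolate; it drives pathogenesis-related (PR) genes, while surface receptors that sense microbial patterns drive kinases such as FRK1. Of 15 synthesis genes 12 were higher and 2 lower, with 10 of the higher ones holding and a median of 1.75. ALD1 (AT2G13810), the aminotransferase of pipecolate synthesis, had 64.5, 50.3 and 52.97 in obe1-2, against 0, 1.02 and 0 in wrky-qm, and FMO1 (AT1G19250), which hydroxylates pipecolate, had 310.0, 244 and 248 in obe1-2, against 29.1, 28.5 and 8.50 in wrky-qm (3.71). ICS2 (AT1G18870), the minor isochorismate synthase, went the other way with 83.3, 58.8 and 25.9 in obe1-2, against 1061, 1055 and 1034 in wrky-qm (-4.35, limma adjusted p = 3.86e-13). PR genes were called higher in 5 of 6 cases and 4 held. BGL2 (AT3G57260), the glucanase PR2, had 1128, 1199 and 1163 in obe1-2, against 23.1, 33.6 and 30.9 in wrky-qm (5.28). Wild-type means were 112 ± 3.46 in Col-0_2 and 366 ± 63.3 in Col-0_1. PR4 (AT3G04720), a chitin-binding protein, had 137679, 125543 and 162010 in obe1-2, against 6360, 6108 and 6128 in wrky-qm (4.51, limma adjusted p = 5.97e-23). Wild-type means were 13283 ± 788 in Col-0_2 and 5350 ± 258 in Col-0_1. Of 17 perception and regulator genes, 12 were higher, 8 of which held, and 2 lower, with smaller differences: the NPR1-interacting NIMIN2 was higher by 2.43 (1.59 after subtraction), the helper immune receptor ADR1 by 1.34 and the bZIP factor TGA3 by 1.13.

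Pattern-triggered immunity genes were higher in obe1-2 in 22 of 26 cases and lower in 4, of which 15 and 4 held. The differences were mostly modest, with 9 genes called at least 2-fold higher and a list median of 0.66. After subtraction the median was 0.33, and 14 of the 26 were also higher in Col-0_2 than in Col-0_1. Both mutants lay above every wild-type library in 17 of the 22 higher genes, an arrangement found in 17.8% of all genes called higher. FRK1 (AT2G19190) had 10587, 11121 and 10083 in obe1-2, against 116, 101 and 109 in wrky-qm (6.59 ± 0.22 (SE), limma adjusted p = 6.02e-17). Wild-type means were 48.5 ± 21.7 in Col-0_2 and 24.1 ± 5.898 in Col-0_1. The precursors of the danger peptides, PROPEP2 and PROPEP3, were higher by 3.92 and 3.66; PROPEP3 (AT5G64905) had 536, 597 and 660.0 in obe1-2, against 42.8, 53.04 and 43.4 in wrky-qm.

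Cysteine-rich receptor-like kinases (CRKs), plasma membrane kinases of which many respond to salicylate and reactive oxygen, were higher in obe1-2 in 33 of 40 tested members and lower in 2, and 28 of the higher ones held. The family median was 2.29, with 2.64 in obe1-2 and 0.38 in wrky-qm against the mean of the wild-type sets. CRK38 (AT4G04510), CRK7 (AT4G23150) and CRK37 (AT4G04500) were listed at 0 in every wrky-qm library, and had 269.9, 284 and 329.8 (CRK38), 153, 111 and 168 (CRK7) and 59.7, 66.8 and 101 (CRK37) in obe1-2. Many CRKs stand in tandem arrays of close copies, so reads may have been split between them.

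The WRKY family as a whole, 71 loci of which 66 were tested, had 43 members higher in obe1-2 and 9 lower, and 34 of the higher ones held; the family includes the genes mutated in wrky-qm. Group III, which holds salicylate-responsive factors, had 7 of 10 members higher, with 5 holding. WRKY62 (AT5G01900) had 323, 249 and 274 in obe1-2, against 7.59, 4.08 and 0 in wrky-qm (6.32), and WRKY54 and WRKY70, paired regulators of salicylate signalling and senescence, were higher by 2.83 and 1.55. WRKY70 also differed between the wild-type sets, by 1.03, which left 0.52 after subtraction. WRKY45 (AT3G01970), a regulator of senescence and phosphate responses, had 1462, 1331 and 1446 in obe1-2, against 43.9, 25.6 and 51.3 in wrky-qm (5.15). The group IIa genes, feedback regulators of immunity and abscisic acid, did not move together: WRKY60 (AT2G25000) had 2381, 2264 and 2533 in obe1-2, against 233, 272 and 238 in wrky-qm (3.27), while WRKY40 (AT1G80840) had 631, 672 and 732 in obe1-2, against 1116, 1262 and 1171 in wrky-qm (-0.80), against 281 ± 33.03 in Col-0_2 and 40.2 ± 3.81 in Col-0_1. WRKY18 was lower by -0.25 (limma adjusted p = 0.0114), with 1619, 1463 and 1554 in obe1-2, against 1806, 1780 and 1922 in wrky-qm, a call that was lost without obe1-2 replicate 2 (limma adjusted p = 0.0565) or wrky-qm replicate 3 (limma adjusted p = 0.0548) and after median centring (-0.075, limma adjusted p = 0.421). After the wild-type difference was subtracted, WRKY40 and WRKY18 differed by -3.58 and -1.04.

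Camalexin is the indolic phytoalexin of Arabidopsis, made from tryptophan through CYP79B and CYP71A enzymes. Of 16 camalexin and indole glucosinolate genes 13 were higher in obe1-2 and 3 lower, and 11 of the higher ones held, with a median of 1.40. CYP71A12 (AT2G30750) had 9426, 9305 and 9463 in obe1-2, against 97.05, 105 and 77.99 in wrky-qm (6.65 ± 0.12 (SE), limma adjusted p = 9.97e-22). Wild-type means were 202 ± 17.5 in Col-0_2 and 172 ± 35.4 in Col-0_1. CYP71A13 (AT2G30770) had 481, 448 and 489 in obe1-2, against 16.8, 20.4 and 9.56 in wrky-qm (4.90, or 8.08 after subtraction); the pair are close tandem copies, so their split is uncertain. GSTF6 (AT1G02930), a glutathione transferase of the camalexin pathway, had 51868, 43893 and 44992 in obe1-2, against 2308, 2107 and 2304 in wrky-qm, and its near-identical neighbour GSTF7 (AT1G02920) had 47576, 52784 and 56067 in obe1-2, against 1448, 1484 and 1725 in wrky-qm, log2 differences of 4.39 and 5.07. The glutathione transferase families as wholes were mixed, with 11 of 27 tau-class members higher and 15 lower, and 6 of 12 phi-class members higher and 5 lower. GSTU11 and GSTU3 were near 0 in wrky-qm, at 4.72 or fewer, and had 230.0, 252 and 276 (GSTU11) and 62.1, 129.9 and 91.1 (GSTU3) in obe1-2.

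Aliphatic glucosinolates, the methionine-derived defence compounds made under MYB28, MYB29 and MYB76, moved in the other direction. Of 16 genes, 14 were lower in obe1-2, 13 held and 1 was higher, with a median of -1.90. MYB29 (AT5G07690) had 116, 114 and 89.2 in obe1-2, against 1885, 1729 and 1837 in wrky-qm (-4.09), and CYP79F1 (AT1G16410), the first enzyme of the core pathway, had 879.8, 936 and 760.2 in obe1-2, against 8038, 8513 and 8424 in wrky-qm (-3.28). Of these genes 13 of 16 were also lower in Col-0_2 than in Col-0_1, with a median of -0.31, and the list median after subtraction was -1.59. Flavonoid and anthocyanin genes were lower in 13 of 14 cases, 9 of which held, among them LDOX (AT4G22880) with 57.1, 49.2 and 59.2 in obe1-2, against 1190, 1218 and 1238 in wrky-qm (-4.44) and the anthocyanin regulator PAP1 (-3.86). Of these genes 10 of 14 were also lower in Col-0_2 than in Col-0_1, with a median of -0.83. The list median was -2.84 directly and -1.98 after subtraction, and LDOX and PAP1 then differed by -3.09 and -3.00.

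**Figure D3:**
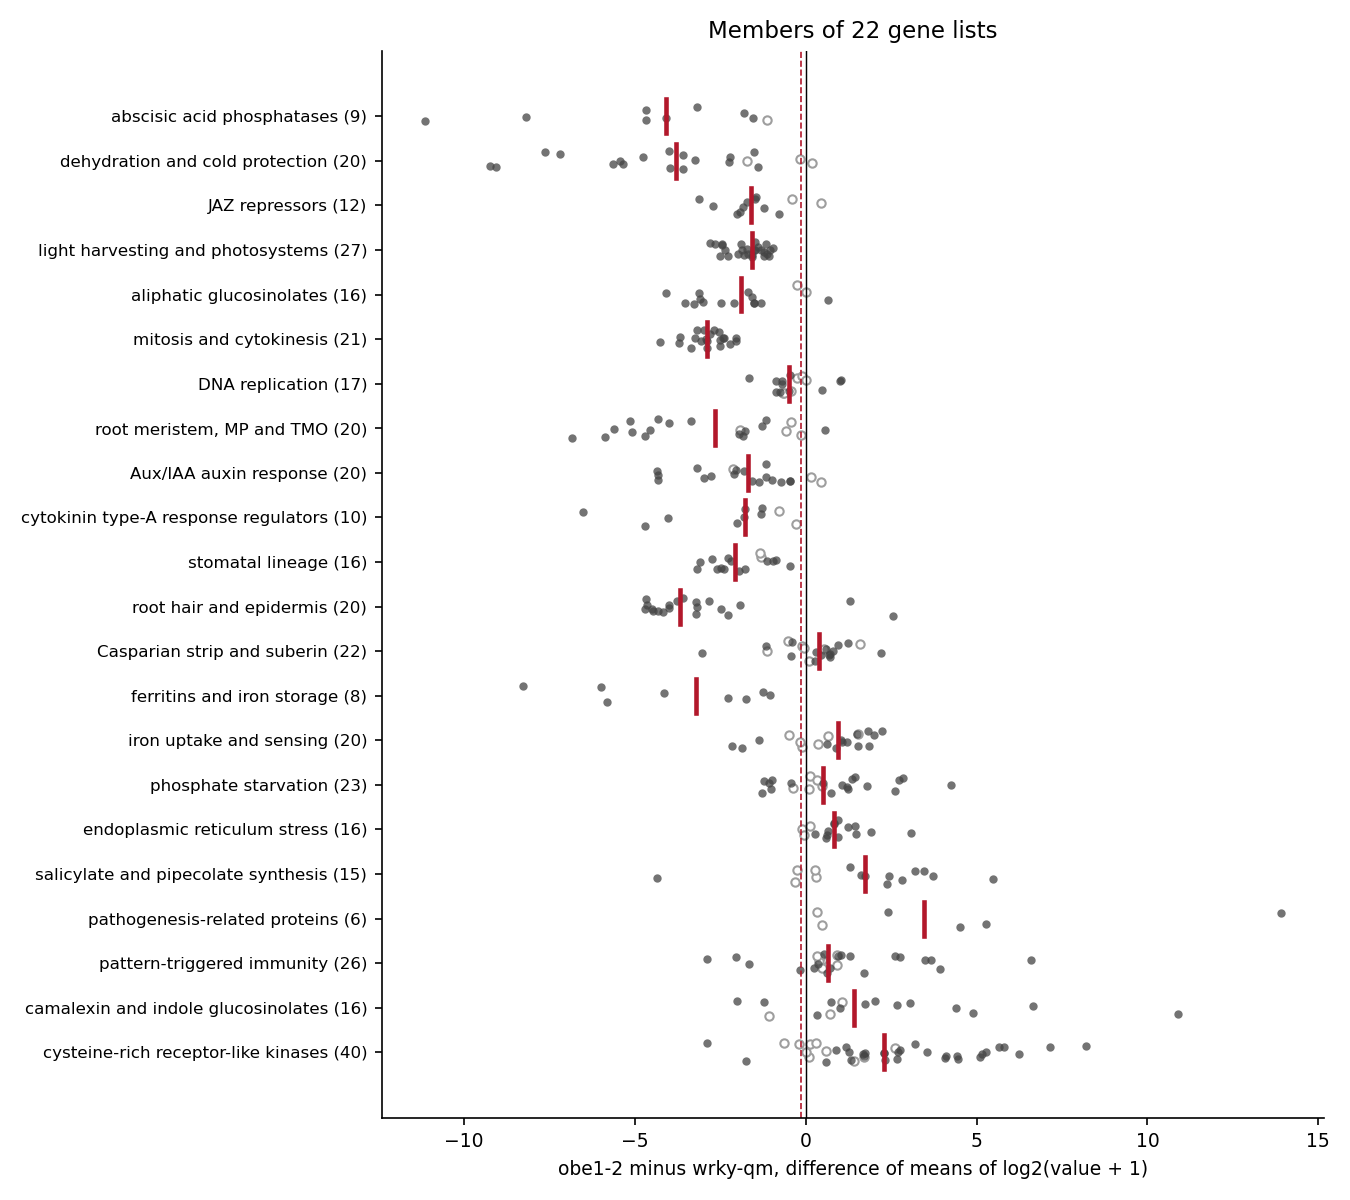
Log2 difference, obe1-2 minus wrky-qm, of every tested member of 22 gene lists, with the number tested in parentheses; filled points held after the wild-type difference was subtracted, open points did not. Red bars are list medians and the dashed line is the median of all genes, -0.13; medians range from -4.08 for abscisic acid phosphatases to 3.46 for PR proteins.

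Jasmonate genes split: repressor genes held, while the calls of output genes depended on the wild-type sets. JAZ genes, which encode repressors that jasmonate both degrades and induces, were lower in obe1-2 in 10 of 12 cases and all 10 held. In 8 of the 10, both mutants lay above every wild-type library, an arrangement found in 4.38% of all genes called lower. JAZ9 (AT1G70700) had 1165, 1205 and 1164 in obe1-2, against 7661, 7406 and 8043 in wrky-qm, and 578 ± 51.7 in Col-0_2 and 813 ± 37.8 in Col-0_1 (-2.71, limma adjusted p = 1e-19), and JAZ5 (AT1G17380) had 138, 189 and 179 in obe1-2, against 1453, 1538 and 1440 in wrky-qm (-3.14). Synthesis genes were mixed: the chloroplast lipoxygenase LOX2 (AT3G45140) had 203646, 207814 and 201523 in obe1-2, against 27603, 27634 and 28208 in wrky-qm (2.88), while LOX3 and LOX4 were lower by -1.81 and -1.56. The output genes of the pathway had 10 of 14 members higher directly but only 5 after subtraction, and the list median was 1.22 directly (0.86 with values under 3 raised to 3) and 0.04 after it. PDF1.2 (AT5G44420), a defensin driven by jasmonate with ethylene, had 19.6, 25.03 and 26.4 in obe1-2, against 1.91, 0.0034 and 0 in wrky-qm, and 802 ± 9.02 in Col-0_2 and 43.9 ± 5.15 in Col-0_1, so both mutants were below both wild-type sets, which themselves differed. PDF1.3, a close copy, had 124, 113 and 102 in obe1-2, against 0, 0.0034 and 1.95 in wrky-qm. Wild-type means were 1616 ± 136 in Col-0_2 and 142 ± 32.02 in Col-0_1. VSP2 (AT5G24770), a vegetative storage protein of the wound branch, held with 287, 239 and 231 in obe1-2, against 9041, 8572 and 8222 in wrky-qm (-5.09), and TAT3 (AT2G24850), a tyrosine aminotransferase, held with 2103, 2110 and 2169 in obe1-2, against 109.9, 75.6 and 55.7 in wrky-qm (4.76). MYC2, the master regulator of the wound branch, is listed at 0 or below 1e-06 in every library of the table and was not tested.

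Of 13 ethylene synthesis genes, 8 were higher and 5 lower in obe1-2, of which 4 and 4 held, and the list median was 0.71 directly and -0.14 after subtraction. ACS7 (AT4G26200), an ACC synthase, had 4590, 4634 and 4578 in obe1-2, against 174, 156 and 171 in wrky-qm, and 56.8 ± 18.1 in Col-0_2 and 19.8 ± 4.89 in Col-0_1 (4.78); ACO1 (AT2G19590), an ACC oxidase, had 60.5, 59.01 and 70.8 in obe1-2, against 465, 462 and 470.1 in wrky-qm (-2.86). Wild-type means of ACO1 were 1919 ± 39.8 in Col-0_2 and 1461 ± 50.01 in Col-0_1. Touch and calmodulin-like genes had 6 of 13 members higher and 3 lower directly, with a median of 0.25 that became -0.60 after subtraction; 9 of the 13 were higher in Col-0_2 than in Col-0_1. CML41 and CML38 held in opposite directions, CML41 (AT3G50770) with 220.0, 267 and 184 in obe1-2, against 3.68, 6.12 and 5.80 in wrky-qm (5.19) and CML38 (AT1G76650) with 229, 252 and 280.2 in obe1-2, against 1043, 1052 and 982 in wrky-qm (-2.02, or -4.23 after subtraction).

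**Figure D4:**
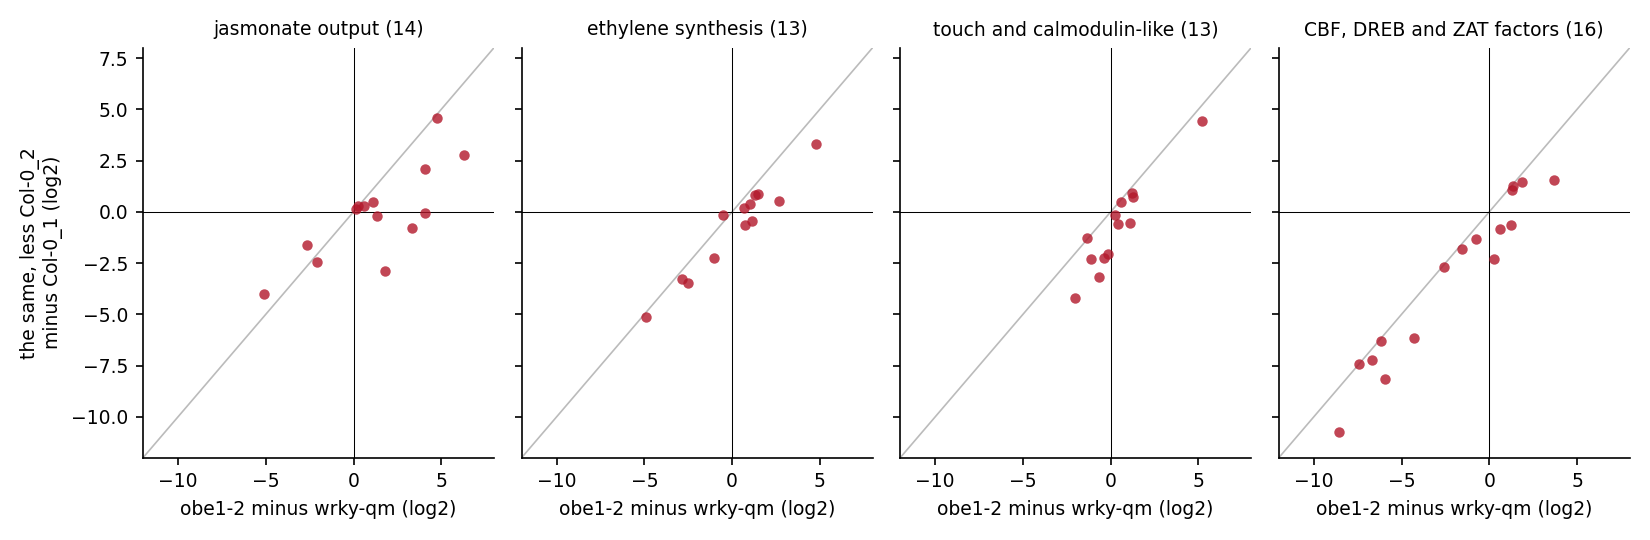
For the members of 4 gene lists (number in parentheses), the log2 difference obe1-2 minus wrky-qm (x) against the same after Col-0_2 minus Col-0_1 was subtracted (y); the grey line marks equal values. Most points lie below the line, and the list medians after subtraction were -0.60 for touch genes and 0.04 for jasmonate output genes, against 0.25 and 1.22 directly.

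Photosynthesis genes were mostly lower in obe1-2. All 27 light-harvesting and photosystem genes were lower and held, with a median of -1.58. In every one obe1-2 lay below all wild-type libraries. In 18 of them wrky-qm overlapped wild type, an arrangement found in 45.6% of all genes called lower. LHCB3 (AT5G54270), an antenna protein of photosystem II, had 46587, 42768 and 46325 in obe1-2, against 263113, 259908 and 254513 in wrky-qm (-2.52 ± 0.05 (SE), limma adjusted p = 7.03e-21). Wild-type means were 244969 ± 8430 in Col-0_2 and 245493 ± 3538 in Col-0_1. LHCB2.2, which has close copies, and LHCA1, an antenna protein of photosystem I, were lower by -2.81 and -2.66. In the Calvin cycle 10 of 13 genes were lower and 1 higher, for example the Rubisco activase gene RCA (AT2G39730) with 59305, 57839 and 59294 in obe1-2, against 199249, 204301 and 198465 in wrky-qm (-1.77). Over 5 leaf markers (LHCB1.3, LHCB3, RBCS1A, RCA and PSAF) the summed level was 633354 to 676512 in obe1-2, 1747016 to 1807619 in wrky-qm, 1736914 to 1769586 in Col-0_2 and 1708889 to 1887881 in Col-0_1. The part of a smaller share of green tissue in the pigment and photosynthesis results was not tested. Senescence and chlorophyll breakdown genes were higher in 10 of 14 cases and lower in 4. SAG13 (AT2G29350), an early senescence dehydrogenase, had 1775, 1724 and 1714 in obe1-2, against 9.397, 6.14 and 5.77 in wrky-qm (7.77, limma adjusted p = 1.63e-19). Wild-type means were 97.2 ± 22.99 in Col-0_2 and 67.8 ± 8.67 in Col-0_1. ORE1 (AT5G39610), a NAC factor that promotes leaf senescence, had 2463, 2740 and 2483 in obe1-2, against 168, 185 and 204 in wrky-qm (3.78, or 2.47 after subtraction), and the chlorophyll-degradation gene NYE2 was higher by 3.80.

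Mitosis genes were lower in obe1-2 while wrky-qm overlapped wild type, and DNA replication genes differed less and less uniformly. All 21 mitosis and cytokinesis genes were lower and held, with a median of -2.88 and a range of -4.27 to -2.04. In all 21 obe1-2 lay below every wild-type library with wrky-qm overlapping them, as in 45.6% of all genes called lower. CDC20.1 (AT4G33270), the activator of the anaphase-promoting complex, had 109, 123 and 130.0 in obe1-2, against 1392, 1644 and 1596 in wrky-qm (-3.67 ± 0.11 (SE), limma adjusted p = 4.83e-18). Wild-type means were 1192 ± 85.7 in Col-0_2 and 1569 ± 115 in Col-0_1. CYCB1;4 (AT2G26760), a mitotic cyclin, had 70.5, 32.1 and 43.5 in obe1-2, against 664, 587 and 610.0 in wrky-qm (-3.72), and the cyclin CYCA2;4 was lower by -4.27. Of 17 DNA replication genes, 12 were lower and 3 higher, 8 and 3 of which held, with a median of -0.49. Both mutants lay below every wild-type library in 9 of the 12 lower genes, against 1529 of all 9754 genes called lower. In the other 3, obe1-2 lay below wild type and wrky-qm overlapped it, against 45.6% of all genes called lower. The origin recognition subunit ORC6 and the ribonucleotide reductase subunit TSO2 were higher by 1.04 and 1.02, and TSO2 (AT3G27060) had 7620, 7181 and 6887 in obe1-2, against 3600, 3570 and 3534 in wrky-qm. Wild-type means were 3855 ± 139.6 in Col-0_2 and 4656 ± 49.3 in Col-0_1. The origin subunit gene ORC1A was lower by -1.67, a call that was lost without obe1-2 replicate 2 (-1.04, limma adjusted p = 0.053) and after quantile normalisation (-0.39, limma adjusted p = 0.482).

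Meristem and auxin genes were lower in obe1-2 for the root and mixed for the shoot. MONOPTEROS (MP) is the auxin response factor of the embryonic root, TMO5 and TMO7 are its target transcription factors, and PLETHORA (PLT) genes set the root stem cell niche. Of 20 genes of this list, 17 were lower in obe1-2, 15 held and 1 was higher, with a median of -2.66, or -2.35 with values under 3 raised to 3. TMO7 (AT1G74500) and PLT1 (AT3G20840) were listed at 0 in every obe1-2 library, and had 138, 115 and 94.3 (TMO7) and 36.7, 82.5 and 63.8 (PLT1) in wrky-qm. TMO5 (AT3G25710) had 14.8, 7.66 and 2.25 in obe1-2, against 359.7, 396 and 366 in wrky-qm (-5.62, limma adjusted p = 1.77e-12). Wild-type means were 507 ± 16.7 in Col-0_2 and 421 ± 16.3 in Col-0_1. Shoot meristem and boundary genes were mixed, with 9 of 17 lower and 5 higher. STM (AT1G62360), the homeodomain gene that maintains the shoot meristem, had 15.1, 19.5 and 12.8 in obe1-2, against 92.2, 96.0 and 106 in wrky-qm (-2.58), and its relative KNAT1 was lower by -2.83, whereas the boundary gene CUC1 (AT3G15170) had 179, 178 and 156 in obe1-2, against 12.9, 21.4 and 15.4 in wrky-qm (3.31). Aux/IAA genes, early auxin-induced repressors, were lower in 18 of 20 cases, 17 of which held, with a median of -1.69, or -1.47 with values under 3 raised to 3; IAA29 (AT4G32280) had 4.34, 2.29 and 8.37 in obe1-2, against 101, 95.1 and 134 in wrky-qm (-4.32). Auxin carriers were lower in 11 of 14 cases, all of which held, and higher in 2. Among the lower ones, the efflux carrier of root epidermis PIN2 (AT5G57090) had 23.7, 19.7 and 23.3 in obe1-2, against 715, 735 and 787 in wrky-qm (-5.01). The influx carrier LAX2 (AT2G21050), also lower, had 26.1, 36.9 and 33.8 in obe1-2, against 1045, 1024 and 1116 in wrky-qm (-5.01).

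Type-A response regulators, rapid cytokinin-induced repressors of cytokinin signalling, were lower in 9 of 10 cases and 8 held. ARR7 (AT1G19050) had 137, 114 and 154 in obe1-2, against 2197, 2234 and 2197 in wrky-qm, and 423 ± 64.3 in Col-0_2 and 409 ± 16.99 in Col-0_1 (-4.03), and ARR15 had 0.0392, 0.0448 and 6.22 in obe1-2, against 150.4, 199 and 203 in wrky-qm; for both, obe1-2 was below and wrky-qm above wild type. Gibberellin oxidase genes were lower in 14 of 15 cases, with the biosynthetic GA20OX3 (AT5G07200) the exception at 261, 164 and 138 in obe1-2, against 24.3, 20.4 and 18.3 in wrky-qm (3.06). Stomatal lineage genes were lower in all 16 cases, of which 14 held, with a median of -2.08. The patterning peptide gene EPF1 (AT2G20875) had 10.7, 8.68 and 3.28 in obe1-2, against 85.2, 75.5 and 53.8 in wrky-qm (-3.18) and the polarity gene BASL was lower by -3.10. The summed level of 5 stomatal markers (SPCH, TMM, EPF2, MUTE and FAMA) was 542 to 675 in obe1-2, 1786 to 2014 in wrky-qm, 2156 to 2277 in Col-0_2 and 2356 to 2542 in Col-0_1.

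**Figure D5:**
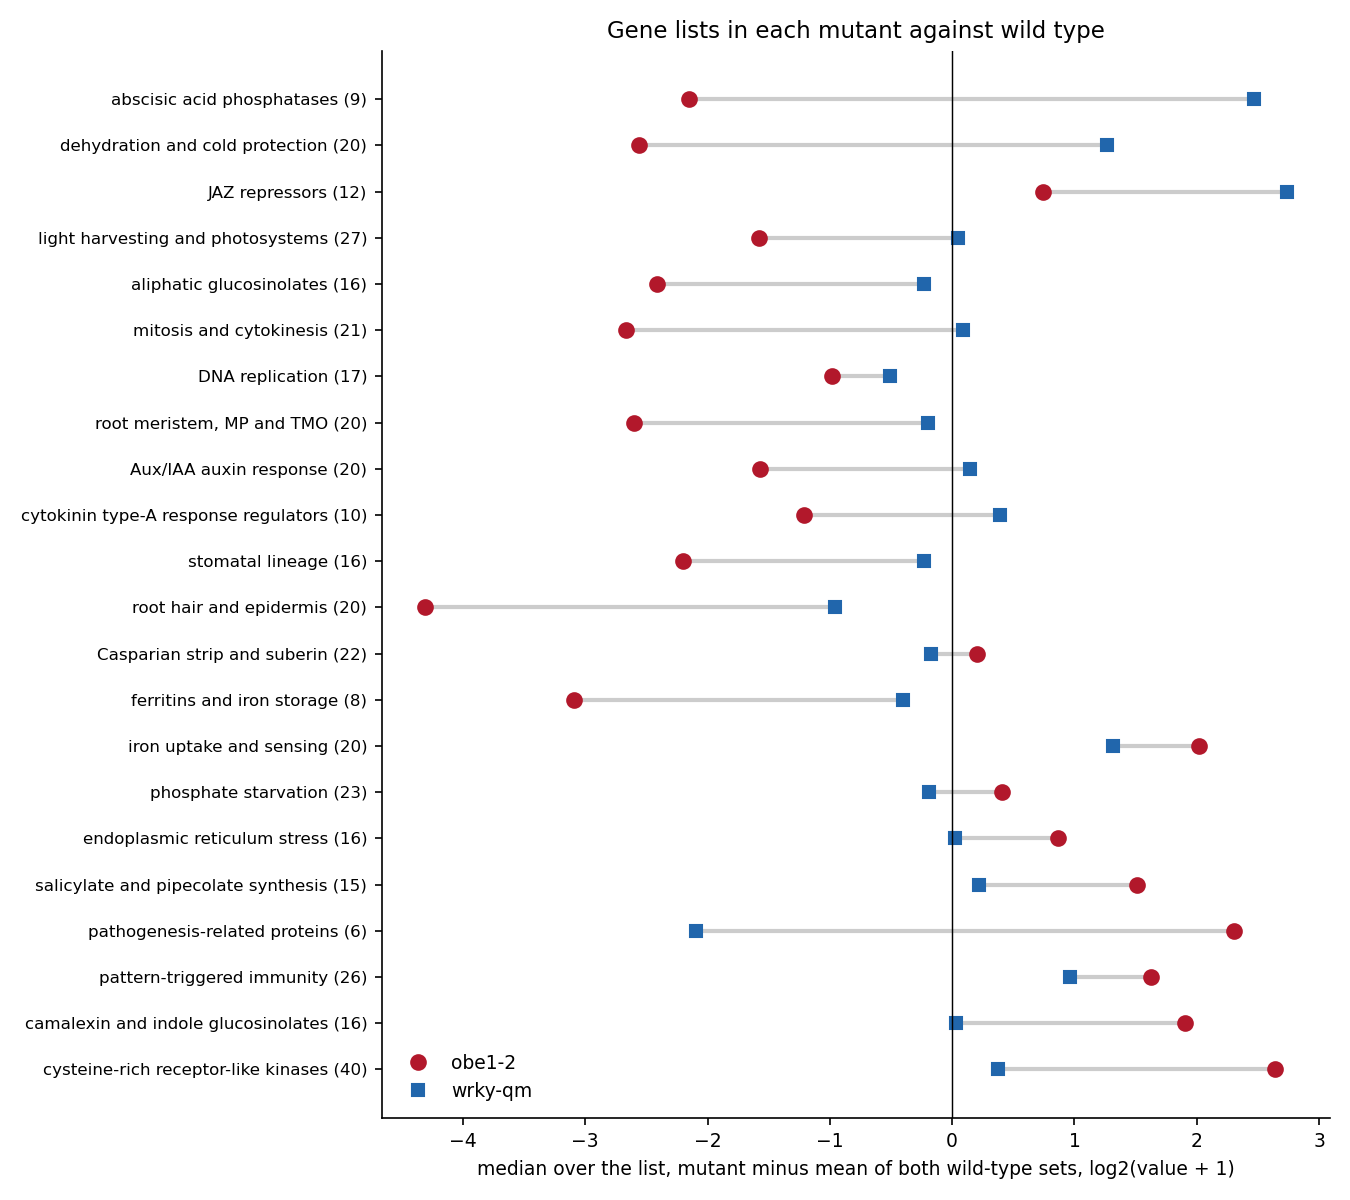
Median over each of 22 gene lists of the log2 difference from the average of the 2 wild-type sets, for obe1-2 (red circles) and wrky-qm (blue squares); the number of members tested is in parentheses. Abscisic acid phosphatases and dehydration genes lie on opposite sides of 0 in the mutants, at -2.15 and -2.56 in obe1-2 against 2.46 and 1.26 in wrky-qm, whereas mitosis genes lie at -2.67 in obe1-2 and 0.09 in wrky-qm.

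Root genes separated by tissue. Root hair and epidermis genes, which encode the wall proteins and kinases of hair outgrowth, were lower in obe1-2 in 18 of 20 cases and higher in 2, and all of these calls held; the median was -3.68, or -3.39 with values under 3 raised to 3. In 14 of the 18, both mutants lay below all wild-type libraries, with obe1-2 the lower, as in 1529 of all 9754 genes called lower. PRP3 (AT3G62680), a proline-rich wall protein of root hairs, had 21.5, 16.5 and 23.2 in obe1-2, against 498, 573 and 520.2 in wrky-qm, and 1351 ± 126 in Col-0_2 and 1290 ± 59.2 in Col-0_1 (-4.64 ± 0.12 (SE), limma adjusted p = 1.36e-18), and COBL9 (AT5G49270), needed for hair elongation, had 4.29, 4.34 and 2.16 in obe1-2, against 112, 119 and 113 in wrky-qm (-4.69). Casparian strip and suberin genes of the endodermis did not share this: 12 of 22 were higher in obe1-2, 4 lower, with a median of 0.38. CASP4 (AT5G06200), a scaffold of the Casparian strip, had 622, 497 and 639 in obe1-2, against 95.3, 151 and 135 in wrky-qm (2.21), and the suberin feruloyl transferase ASFT was higher by 1.22. The fatty acid reductase gene FAR1 (AT5G22500) went the other way, with 526, 535 and 562 in obe1-2, against 1213, 1207 and 1232 in wrky-qm (-1.17). In this list 3 genes were called at least 2-fold higher and 2 at least 2-fold lower. Summed over 5 markers, root hair markers (COBL9, EXPA7, RHS19, PRP3 and LRX1) reached 150.1 to 197 in obe1-2, 1986 to 2111 in wrky-qm, 4343 to 4586 in Col-0_2 and 3833 to 4017 in Col-0_1. The part of root tissue composition in these results was not tested.

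Root triterpene cluster genes were lower in 7 of 12 cases and higher in 2, with 6 of the list having a mean under 3 in 1 of the mutants; MRO (AT5G42590) of the marneral cluster had 0.0392, 4.27 and 2.12 in obe1-2, against 99.03, 63.5 and 109 in wrky-qm. Wild-type means were 278 ± 32.9 in Col-0_2 and 285 ± 9.76 in Col-0_1. Cellulose synthase genes were lower in 6 of 9 cases and higher in 1, the falls led by the secondary-wall subunits CESA8 (AT4G18780) with 73.3, 61.3 and 79.2 in obe1-2, against 852, 821 and 1014 in wrky-qm (-3.63) and CESA7 (-3.53). Cuticular wax genes were lower in 11 of 16 and higher in 4; CER1 (AT1G02205), which makes the alkanes of the cuticle, had 319, 295 and 406 in obe1-2, against 7805, 7865 and 7815 in wrky-qm (-4.53), with 3497 ± 81.3 in Col-0_2 and 6842 ± 111 in Col-0_1.

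Nutrient genes split between storage and uptake. All 8 ferritin and vacuolar iron transporter genes were lower in obe1-2 and held, with a median of -3.21, or -2.95 with values under 3 raised to 3. The transporter-like genes VTL5 (AT3G25190) and VTL1 (AT1G21140) were listed at 0 in every obe1-2 library, and had 346, 283 and 291 (VTL5) and 85.4, 50.1 and 58.8 (VTL1) in wrky-qm, with 532 ± 14.6 in Col-0_2 and 611 ± 52.7 in Col-0_1 for VTL5. Iron uptake and sensing genes were higher in 13 of 20 cases and lower in 4, 11 and 3 of which held. In 8 of the 13 both mutants lay above wild type, against 17.8% of all genes called higher. The iron-deficiency regulator BHLH100 (AT2G41240) had 3299, 3027 and 3180 in obe1-2, against 859, 781 and 751 in wrky-qm, and 83.9 ± 9.92 in Col-0_2 and 108 ± 10.1 in Col-0_1 (1.99, limma adjusted p = 4.67e-12), whereas FIT1 (AT2G28160), the regulator of root iron uptake, had 91.8, 117 and 84.9 in obe1-2, against 502, 396 and 425 in wrky-qm (-2.17). Phosphate starvation genes were higher in 13 of 23 cases, 12 of which held, and lower in 6, such as the phosphate transporter PHT1;4 (AT2G38940) with 10269, 9116 and 9877 in obe1-2, against 1380, 1376 and 1329 in wrky-qm (2.84) and the ribonuclease RNS1 (4.25, or 2.71 after subtraction) among the higher. Nitrate genes were higher in 8 of 13 cases, all of which held, and lower in 2; NIA2 (AT1G37130), the major nitrate reductase, had 175821, 174531 and 171228 in obe1-2, against 48096, 46724 and 48146 in wrky-qm (1.87), and the nitrate and phosphate response repressor HRS1 was higher by 3.35.

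Among cellular stress programmes, endoplasmic reticulum stress genes, which encode chaperones induced by unfolded secretory proteins, were higher in obe1-2 in 13 of 16 cases, all of which held. PDI6 (AT1G77510), a protein disulphide isomerase, had 8344, 8561 and 8196 in obe1-2, against 3018, 2958 and 2989 in wrky-qm (1.49), and BIP3 (AT1G09080), the stress-specific Hsp70 of the compartment, had 48.7, 54.6 and 65.4 in obe1-2, against 7.51, 4.102 and 5.79 in wrky-qm (3.09). Core hypoxia genes were lower in 9 of 13 cases, all of which held, and higher in the other 4, 2 of which held. In 8 of the 9 lower genes both mutants were below all wild-type libraries, against 1529 of all 9754 genes called lower. SUS4 (AT3G43190), a sucrose synthase of low oxygen, had 0.0772, 7.49 and 5.27 in obe1-2, against 597, 632 and 679 in wrky-qm, and 6825 ± 105 in Col-0_2 and 4013 ± 124 in Col-0_1, and PDC1 (AT4G33070), the pyruvate decarboxylase of fermentation, had 168, 204 and 195 in obe1-2, against 809, 866 and 789.5 in wrky-qm (-2.12). Wild-type means of PDC1 were 7600 ± 248 in Col-0_2 and 3897 ± 140.4 in Col-0_1. Of these 13 genes 11 were also higher in Col-0_2 than in Col-0_1. Clock genes were lower in 10 of 16 cases and higher in 4; CCA1 (AT2G46830), a morning-expressed core factor, had 189.8, 201 and 173 in obe1-2, against 1346, 1360 and 1418 in wrky-qm (-2.87), with 403 ± 18.1 in Col-0_2 and 1620 ± 119.9 in Col-0_1, and its difference after subtraction was -0.86. No label gives the hour of harvest.

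Some lists lay near the background of all genes or depended on scaling. Heat shock genes had 5 of 19 members higher and 6 lower, and the lower calls were all lost after quantile normalisation. Mitochondrial stress genes had 4 higher and 4 lower of 14, antioxidant enzymes 6 and 6 of 14, cyclin-dependent kinase inhibitors 2 and 3 of 11, and Polycomb and FLC-related genes 3 and 8 of 17. After quantile normalisation the higher and lower counts were 7 and 5 for mitochondrial stress and 7 and 1 for cyclin-dependent kinase inhibitors, and after median centring they were 6 and 5 for Polycomb and FLC-related genes. Single members stood out within them. AOX1D (AT1G32350), an alternative oxidase, had 369, 338 and 362 in obe1-2, against 0, 4.05 and 0 in wrky-qm, while NDA1 (AT1G07180), an internal alternative NADH dehydrogenase, had 157, 154 and 121 in obe1-2, against 1532, 1596 and 1456 in wrky-qm (-3.41). MEA (AT1G02580), a Polycomb subunit known for its role in the endosperm, had 95.03, 95.01 and 113 in obe1-2, against 1.87, 3.05 and 0 in wrky-qm. Wild-type means were 2.61 ± 3.07 in Col-0_2 and 6.50 ± 1.101 in Col-0_1. MAF5 (AT5G65080), a MADS-box relative of the floral repressor FLC, had 5.65, 17.3 and 19.96 in obe1-2, against 105, 108 and 105 in wrky-qm (-2.97).

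The genes that differed most between the wild-type sets were read as a check. CRA1 and PDF1.2 were also among them and are given above. BGLU19 (AT3G21370) had 32.7, 57.3 and 43.4 in obe1-2, against 676, 698 and 679.5 in wrky-qm, and 102 ± 7.52 in Col-0_2 and 2.47 ± 1.45 in Col-0_1, so its direct log2 difference of -3.95 and its difference after subtraction of -8.94 share a sign. RTFL12 (AT4G13395) had 119.6, 103 and 122 in obe1-2, against 111, 136 and 62.3 in wrky-qm, and 100.5 ± 2.098 in Col-0_2 and 4.97 ± 2.96 in Col-0_1, and was not called directly (limma adjusted p = 0.579) but was lower by -4.02 after subtraction. The uncharacterised AT3G01345 had 19.2, 8.93 and 14.8 in obe1-2, against 5.68, 0.0166 and 3.87 in wrky-qm, and 5.84 ± 4.51 in Col-0_2 and 436 ± 29.1 in Col-0_1, and its direct call was lost without wrky-qm replicate 2 (limma adjusted p = 0.0504). The peroxidase gene AT1G49570 had 255, 301 and 361 in obe1-2, against 418, 407 and 413 in wrky-qm, and 76.6 ± 5.92 in Col-0_2 and 778 ± 49.5 in Col-0_1, and its sign turned with the subtraction. AT1G09500, a Rossmann-fold gene, had 64.5, 60.98 and 49.9 in obe1-2, against 214, 191 and 224 in wrky-qm. Its wild-type means were 21.6 ± 11.3 in Col-0_2 and 150 ± 16.5 in Col-0_1. It was called lower directly (-1.83, limma adjusted p = 2.44e-05) but higher after subtraction (1.05, limma adjusted p = 0.048). AT3G28270, a putative transmembrane protein gene, had 8.68, 8.78 and 12.6 in obe1-2, against 735, 702.5 and 665 in wrky-qm (-6.01, or -3.20 after subtraction). Its wild-type means were 29.1 ± 14.2 in Col-0_2 and 196 ± 22.2 in Col-0_1. Of the genes with values in this paragraph, BGLU19, AT3G01345 and AT3G28270 kept their direction after subtraction, and RTFL12, AT1G49570 and AT1G09500 did not.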

How the data were processed

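Transcripts were measured in whole seedlings, 15 libraries in 5 groups of 3, by 150-bp paired-end sequencing on a NovaSeq instrument after TRIzol extraction, per the labels' protocols. The submitters' processing notes name bcl2fastq, HISAT2, edgeR and the TAIR10 build; no source used here states their roles, versions or settings, the strandedness or the annotation, so overlapping and opposite genes cannot be told apart. The table deposited by the authors holds a signal for each locus in each library, and no source states its unit. The values are not negative and not whole and behave like reads scaled to a common library size, so they are called normalised reads. No whole reads could be recovered, so limma, the test planned unless the table held raw counts, was used. Values are not divided by gene length, so levels of different genes were not compared.

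Values under 1e-06 were set to 0. Genes averaging 1 or more in obe1-2 or wrky-qm were kept, 24170 of 32548, and log2(value + 1) was fitted for all 15 libraries with 5 group means by limma-trend (limma 3.58.1, R 4.3.3), with p-values adjusted by the Benjamini-Hochberg method over 24170 genes and a threshold of 0.05. Contrasts were obe1-2 minus wrky-qm, Col-0_2 minus Col-0_1, and the first less the second. The fifth group, wrky-qm_15_hz, thus entered only the estimate of spread behind the p-values. A fit on the 12 libraries without it gave 7843 genes higher and 9822 lower in obe1-2. Library totals were 44049333 to 49934976; these limit precision for genes of a few reads. No fold is given where a mutant's mean is under 3, apart from the PDF1.2 difference listed among those whose sign turned and list medians.

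All 32548 loci found a name by locus in the RefSeq annotation of TAIR10.1. Its build differs from the files', so no coordinates were used. The genes and 56 lists (52 written from memory with homonyms corrected by locus, and 4 families by symbol) were chosen with earlier results of these data known, and 1 of 783 written members, AOP2, found no locus. Members under the filter, such as ABI4, WUS and SAG12, are not counted as tested. Genes were named by a rule: the OBERON and group IId genes, the 8 largest differences each way among genes that held with a mean of at least 100, up to 3 genes a list with a mean of at least 20, and the 4 largest wild-type differences each way; MYC2 was added after its values were seen. In all, 27 alternatives were run, of which 25 were planned. The summed level of endodermis markers is not reported here.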

Additional observations from a re-analysis of the deposited data

How the results depend on the processing

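Counts over all genes were recomputed under 27 alternatives, giving 208 values, of which 207 were within 1.5 times the count reported; genes lower in Col-0_2 than in Col-0_1 numbered 1508 at a threshold of 0.01. Leaving out 1 library at a time gave 7454 to 7819 genes higher and 9335 to 9755 lower in obe1-2, 5931 to 6099 and 7540 to 7616 of which held, and 2892 to 2984 and 5555 to 5733 at 2-fold; the wild-type sets gave 2887 to 3399 higher and 1909 to 2425 lower. The replicate block gave 7779 higher and 9719 lower. Deviations of same-numbered libraries of the 2 mutants from their own group means correlated at 0.001 to 0.015. Not every library's deviations correlated best with those of its own number. Counts of list members stayed within 1.5 times in 2957 of 3024 recalculations. Requiring a mean of at least 3 in both mutants, a setting chosen after seeing the data, left 11 root meristem, 4 iron storage and 3 triterpene genes lower, since genes near 0 in obe1-2 were then not tested. Named genes kept their direction and side of the threshold in 5047 of 5073 recalculations. Most were named for large differences that held, so this count largely follows from how they were chosen. The direct sign turned for WRKY74, not called in any of these 3, without obe1-2 replicate 2 (-0.14), wrky-qm replicate 1 (-0.12) or wrky-qm replicate 2 (-0.049), its range without 1 library being -0.14 to 0.40, and for RTFL12 without wrky-qm replicate 3, with a range of -0.10 to 0.45. After quantile normalisation both were called higher, WRKY74 by 1.15 (limma adjusted p = 0.0239) and RTFL12 by 0.93 (limma adjusted p = 0.0266). With the wild-type difference subtracted it turned for WRKY15 (-0.14), WRKY74 (-0.32), OBE3 (-0.058), RTFL12 (-4.02), PDF1.2 (-0.068), AT1G49570 (2.88) and AT1G09500 (1.05), as that contrast removes the difference between the wild-type sets. The 6-library fit has no wild-type values, and the count tests planned for raw counts, edgeR and DESeq2, were not run. Values of a few reads, common in obe1-2, limit the size of any fold there.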
